A study of Mus musculus with 6 samples.

Results

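Oxidative phosphorylation subunits are the proteins of the 5 complexes of the mitochondrial inner membrane. They were chosen here by gene symbol, as the NADH dehydrogenase, succinate dehydrogenase, cytochrome bc1, cytochrome c oxidase and ATP synthase subunit genes, without symbols marked as pseudogenes. Of 38561 genes in the count tables, 98 were members, 13 encoded by the mitochondrial genome and 85 by nuclear chromosomes. Cox6c2 was kept as a member by its symbol, although it is annotated as a processed pseudogene. By complex there were 43 members in I, 4 in II, 9 in III, 23 in IV and 19 in V, with Ndufa4 counted as a subunit of complex IV.

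The samples were polyA-selected RNA of small intestinal mucosa from C57BL/6J mice of both sexes, aged 8 to 12 weeks per the labels, in 3 pools of the genotype Rbm47_IKO and 3 of the genotype wt. Each pool held RNA of 3 mice per the labels. Rbm47-IKO mice carry floxed Rbm47 alleles and a constitutive Cre under the villin promoter, which is active in gut epithelium and not in the muscle, immune or connective tissue cells that mucosa also holds, and the study's methods name Rbm47 fl/fl mice as its controls. Rbm47 encodes a protein that binds RNA, and the comparison asks which transcripts differ between the pools labelled Rbm47_IKO and those labelled wt.

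Complexes I to IV pass electrons from NADH and succinate to oxygen and, at I, III and IV, pump protons, and complex V uses the proton gradient to make ATP. Complex II is the sole complex built from nuclear genes alone. The others combine nuclear subunits with subunits translated inside the organelle from polycistronic mitochondrial transcripts. Absorptive enterocytes are rich in mitochondria, which supply the energy for nutrient transport.

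Counts of the targeted gene, Rbm47, went against the genotype labels. Its level was 603, 625 and 619.8 normalised CPM, the count scaled to the effective size of the library, in the pools labelled Rbm47-IKO and 459.8, 449.9 and 472 in wt pools. All 3 pools labelled Rbm47-IKO were above all 3 wt pools, with a log2 fold change of 0.42 (standard error, SE, 0.10, edgeR adjusted p = 0.0751). Rbm47 passed as higher with DESeq2 (adjusted p = 0.000983) and with edgeR scaled by library size only (adjusted p = 0.0473). A count over the whole gene does not show whether the floxed exons were lost, so the groups are called by their labels throughout. Total counts ran from 31560320 to 38951830 per pool, and no 2 pools held identical counts. The 12 enterocyte markers were all detected and summed to 64896 to 70781 CPM in pools labelled Rbm47-IKO and 71530 to 79737 in wt pools. These ranges lay close but did not overlap, with every pool labelled Rbm47-IKO below every wt pool. Without Apob (mean 10378 against 18912 CPM), a sum chosen after seeing the data, they were 54055 to 60351 and 54230 to 57617, which overlap. Of the 12, 7 had log2 fold changes above 0 and 5 below, with Anpep (0.52) and Fabp2 (0.51) higher and Apob, Apoa4 and Sis lower without overlap, in backgrounds of 11.7% and 11.6% of all genes. None of these 5 passed, with edgeR adjusted p from 0.0583 (Apob) to 0.271 (Sis). The 10 smooth muscle markers were high in pool 3 labelled Rbm47-IKO (4395 CPM) and wt pool 2 (3524), against 126 to 791 in the other 4 pools.

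Several members are listed at or near 0, and many have copies elsewhere in the genome, so short stretches of coding sequence are shown first. Each is 30 bases from the middle of the coding sequence, 5′ to 3′, from GENCODE M21 transcripts (GRCm38). Capitals mark a stretch that is also present, base for base, in a transcript of another gene, and lower case marks one that is not. The mitochondrial examples are a deeply read subunit (mt-Nd1, MT:3213-3242, plus strand) and one with no reads (mt-Co2, MT:7340-7369, plus strand). The nuclear examples are the 3 genes for the c subunit of ATP synthase, which forms the membrane ring, at coding bases 190 to 219 of Atp5g1, 205 to 234 of Atp5g2 and 199 to 228 of Atp5g3.
mt-Nd1: ttaataaatggatcctactctctacaaaca
mt-Co2: TATACTGACTATGAAGACCTATGCTTTGAT
Atp5g1: GACACAGCAGCCAAGTTCATTGGTGCTGGG
Atp5g2: ATTTCAAGGGACATCGACACAGCTGCCAAG
Atp5g3: gacattgatactgctgccaaattcattggt

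Among the 13 mitochondrial genes, 7 were measured deeply and 6 were at or next to 0. The 6 are mt-Co2, mt-Atp8, mt-Atp6, mt-Co3, mt-Nd3 and mt-Nd4l, which are consecutive protein-coding genes between mt-Co1 and mt-Nd4 (positions 7013 to 10173 of the mitochondrial genome). They hold cytochrome c oxidase subunits II and III, both mitochondrial ATP synthase subunits and a pair of small complex I subunits. Together they had 1 count, for mt-Co3 in pool 1 labelled Rbm47-IKO. A count of 0 allows up to 3 counts, or 0.077 to 0.0951 CPM of the unscaled library totals, a limit that covers counting error only. In the same pools mt-Co1, just upstream, had 193999 to 386667 counts and mt-Nd4, just downstream, 8846 to 13764.

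For 5 of these 6 genes, nearly the whole coding sequence is also present in an unprocessed pseudogene of the same order on chromosome 1 (GRCm38, 24611535 to 24616197). Cut into overlapping words of 50 bases, the coding sequence of mt-Co2 was found in other genes for 100% of words, that of mt-Co3 for 99.9%, mt-Atp6 for 99.5%, mt-Nd4l for 98.8% and mt-Nd3 for 98.0%. The nuclear copies are Gm28661, Gm28437, Gm10925, Gm10222 and Gm28438. mt-Atp8 shared no word with an annotated transcript, and lies between mt-Co2 and mt-Atp6. Of the measured genes, mt-Nd4 shared 62.2% of words, mt-Co1 51.1%, mt-Nd2 8.19% and mt-Nd5 7.61%, while mt-Nd1, mt-Nd6 and mt-Cytb shared none. How reads that match several places were treated is not given in the sources used here, and the part of shared sequence in these counts was not tested.

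Nuclear members with near-complete copies were also listed at low levels. Of 97 members with a coding sequence, 11 shared at least 90% of their words with another gene, 27 shared 10% to under 90%, 13 shared less and 46 shared none. The 6 nuclear members in the first class were Atp5g1, Atp5g2, Atp5l, Cox7c, Ndufb4 and Ndufab1. Their mean levels ran from 0.532 to 7.76 CPM per kilobase of exon, with a median of 2.12. The 42 nuclear members that shared no word ran from 0 to 492.5, with a median of 59.0, a value that includes isoforms of other tissues listed at or near 0. Levels of genes with such copies are uncertain, since the counting could have split or dropped their reads.

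**Figure D1:**
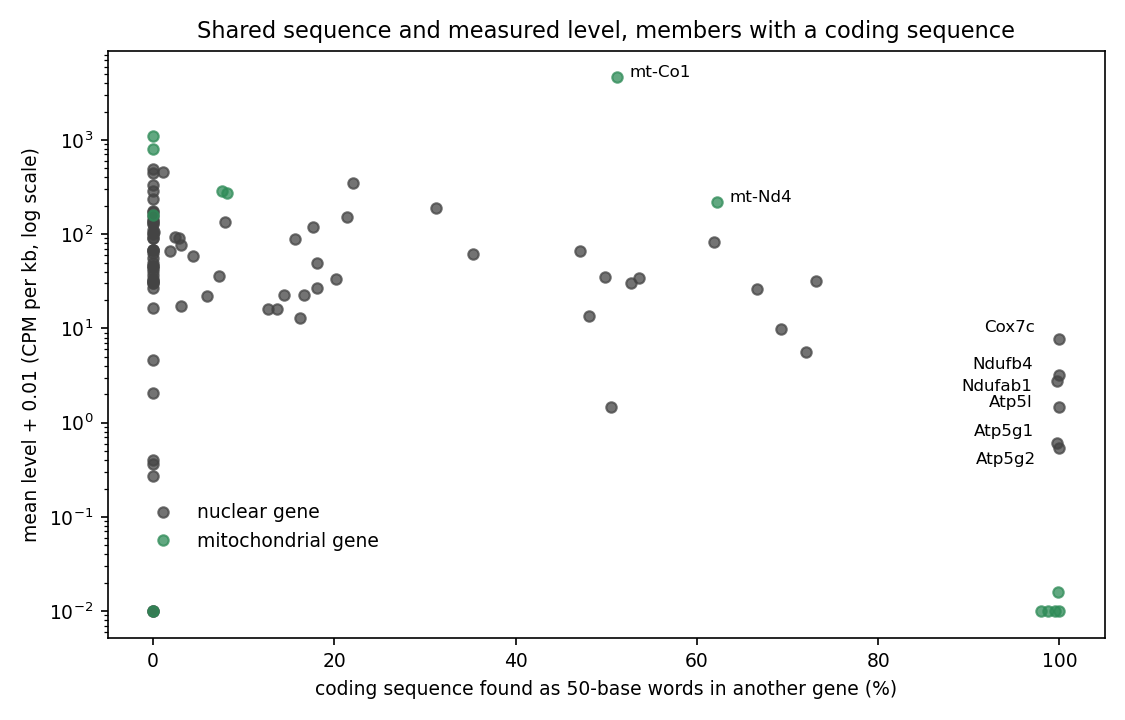
Mean level over the 6 pools (CPM per kilobase plus 0.01, log axis) against the percentage of a member's coding sequence found as 50-base words in another gene, for the 97 members with a coding sequence, with nuclear genes in grey and mitochondrial genes in green. The 11 genes at the right edge, 6 nuclear and 5 mitochondrial, have a highest level of 7.76 CPM per kilobase.

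The genotype comparison answers whether transcripts of the complexes differed between the labelled groups. None of the 85 members that passed the filter on low counts was called (edgeR quasi-likelihood test, adjusted p of 0.05 or less), where 2.7% of the 16425 genes tested were called, 1.45% higher and 1.25% lower. DESeq2 called 1 member, Cox7a1, against a background of 9.03%, and limma-voom called 0. At an unadjusted p under 0.05 there were 4 members, Cox7a1, Sdha, Sdhd and Atp5f1, and 16.8% of all genes tested. That count of 4 ranged from 1, without pool 3 labelled Rbm47-IKO or wt pool 3, to 10, without wt pool 2. It was 2 without pool 1 labelled Rbm47-IKO and 7 without wt pool 1. The share of all genes moved as well, to 14.9% and 13% without the pools that gave 1 member, 21.9% without wt pool 2, 11.9% without pool 1 labelled Rbm47-IKO and 15.9% without wt pool 1. The 13 members that did not pass the filter were the 6 mitochondrial genes named above and Atp5g2, Cox4i2, Cox6a2, Cox6c2, Cox7b2, Cox8b and Cox8c. The members' log2 fold changes, pools labelled Rbm47-IKO over wt, ran from -0.89 to 0.29 with a median of -0.06, against -0.01 over all genes tested. Of the 85, 55 were below 0 and 30 above, where 50.7% of all genes were below 0. The 95% interval lay within a 2-fold change either way for 84 of the 85, against 10333 of the 16425 genes tested. The remaining member was Cox7a1. Pools of the genotypes did not overlap for 3 members, all lower in the pools labelled Rbm47-IKO (Cox7a1, Sdha and Sdhd), where 11.6% of all genes were lower without overlap. No member was higher without overlap, against 11.7% of all genes.

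**Figure D2:**
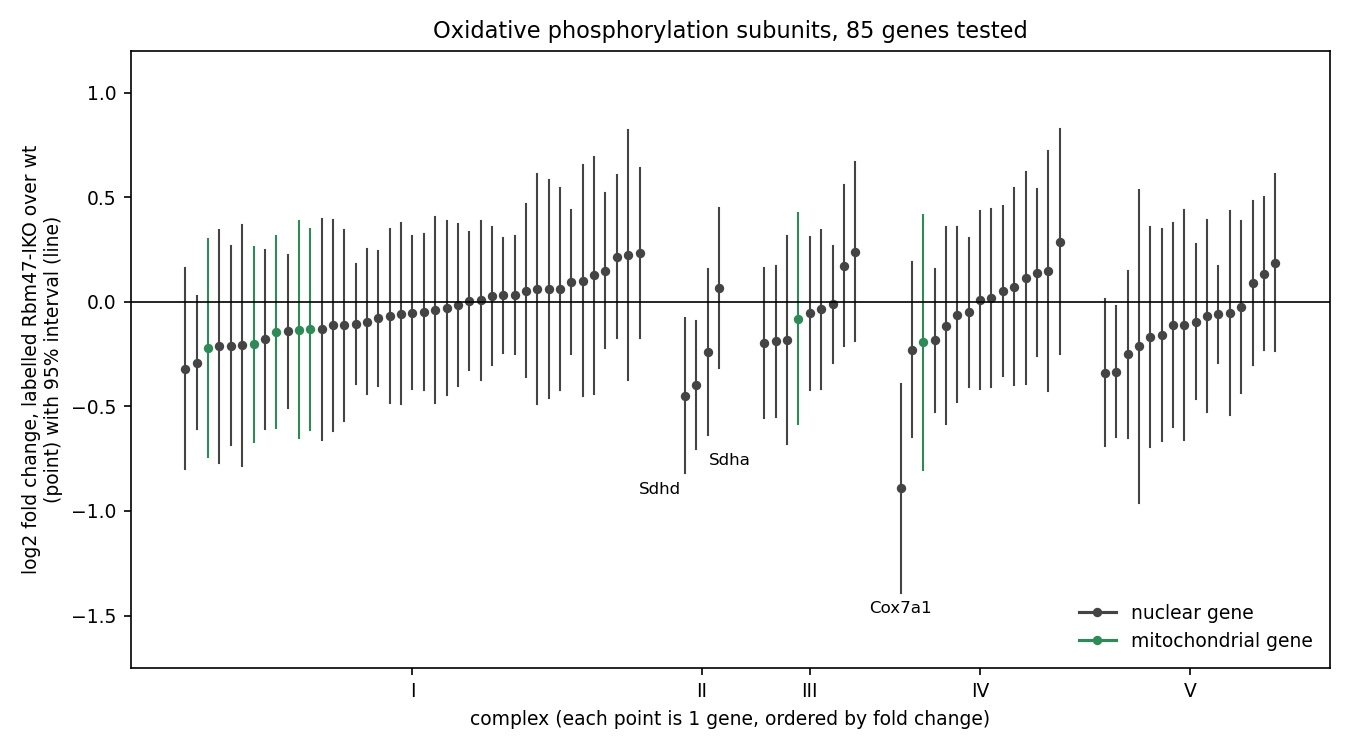
Log2 fold change (points) with its 95% interval (lines) of the 85 members tested, pools labelled Rbm47-IKO over wt, grouped by complex and ordered by fold change, with nuclear genes in grey and mitochondrial genes in green. Most intervals span 0, and Cox7a1 (-0.89), Sdhd (-0.45) and Sdha (-0.40) have the lowest point estimates.

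Complex I, the NADH dehydrogenase, showed no member past the threshold among 41 tested. Its median log2 fold change was -0.05, with 25 members below 0 and 16 above, and the lowest adjusted p was 0.343 (Ndufa5). Ndufb9, an accessory subunit and its most abundant nuclear member at 187 CPM per kilobase, had 99.7, 149 and 124 CPM in the pools labelled Rbm47-IKO and 96.6, 162 and 98.5 in wt pools. The highest and the lowest of these 6 values were both wt. Its log2 fold change was 0.06 (SE 0.24, edgeR adjusted p = 0.943). The lowest point estimates were those of the accessory subunits Ndufa12 (-0.32, SE 0.21) and Ndufa5 (-0.29, SE 0.14). Leaving out a pool moved Ndufa12 between -0.43 and -0.079 and Ndufa5 between -0.41 and -0.21, and Ndufa12 shares 69.3% of its 50-base words with another gene. The highest were those of Ndufb3 (0.23, SE 0.18) and Ndufb11 (0.22, SE 0.26), with 0.078 to 0.42 and 0.063 to 0.55 when a pool was left out. Ndufb11 shares 12.9% of its exon length with Rbm10 on the opposite strand, and use of strand in counting is not given in the sources used here.

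Complex II, the succinate dehydrogenase that also serves the citric acid cycle, had the lowest median of the complexes, -0.32 over 4 genes. Sdha, the flavoprotein that oxidises succinate (ENSMUSG00000021577, chromosome 13, 74322254 to 74350280), had 358, 359 and 307 CPM in the pools labelled Rbm47-IKO and 401, 439.8 and 507 in wt pools. The groups did not overlap. The log2 fold change was -0.40 (SE 0.13, 95% interval -0.70 to -0.09, edgeR adjusted p = 0.174), which did not pass. Sdhd, a membrane anchor (ENSMUSG00000000171, chromosome 9, 50596338 to 50603849), had 189, 202.4 and 169 CPM against 202.9, 299 and 263. The highest pool labelled Rbm47-IKO and the lowest wt pool differed by less than 1 CPM. Its log2 fold change was -0.45 (SE 0.16, 95% interval -0.82 to -0.08, edgeR adjusted p = 0.206).

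The other two genes of the complex had overlapping groups. Sdhc, the second anchor, had 187, 212 and 162 CPM against 176, 259.8 and 228, a log2 fold change of -0.24 (SE 0.17, edgeR adjusted p = 0.554). Leaving out a pool moved this value between -0.38 and -0.11. Sdhb, the iron-sulfur subunit, had 215, 267 and 202 CPM against 187, 260.5 and 205, a log2 fold change of 0.07 (SE 0.16, edgeR adjusted p = 0.909). The sum over the 4 genes was 949, 1041 and 839.6 CPM against 967, 1259 and 1204, so that the groups overlapped in the sum. The median stayed below 0 when any pool was left out, between -0.43 and -0.21. Enterocyte markers had fold changes in both directions, none past the threshold among those named above. Their sum was lower in every pool labelled Rbm47-IKO than in every wt pool, and overlapped without Apob. The part of these markers in the Sdha and Sdhd values was not tested. In such bulk samples fewer cells of a type and less RNA per cell cannot be told apart.

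Complex III, the cytochrome bc1 complex, had 9 members tested and a median of -0.05, with 7 below 0 and 2 above. Uqcrc1, a core protein and its most abundant nuclear member at 285 CPM per kilobase, had 482, 507 and 400.3 CPM against 393, 520.5 and 529.9 in wt pools. The wt pools held both its lowest and its highest values. The log2 fold change was -0.05 (SE 0.16, edgeR adjusted p = 0.923). The extremes were Uqcrb, which helps bind ubiquinone (-0.20, SE 0.15), and Uqcrfs1, the Rieske iron-sulfur protein (-0.19, SE 0.15), below 0. Uqcrq (0.24, SE 0.18) and Uqcrh, the hinge protein at the cytochrome c1 site (0.17, SE 0.17), were above 0. Leaving out a pool moved Uqcrb between -0.29 and -0.036, Uqcrfs1 between -0.31 and -0.076, Uqcrq between 0.13 and 0.48 and Uqcrh between 0.036 and 0.33. Uqcrb shares 73.2% of its words with other genes. The lowest adjusted p of the complex was 0.600 (Uqcrq).

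Complex IV, cytochrome c oxidase, had 15 members tested with a median of 0.01. This median ran from -0.021 to 0.028 over the other settings with all pools, and from -0.12 to 0.22 when a pool was left out. The complex held the member with the largest difference. Cox7a1 is the isoform of subunit 7a known from heart and skeletal muscle (ENSMUSG00000074218, chromosome 7, 30184171 to 30186028). It had 645, 1021 and 777 counts in the pools labelled Rbm47-IKO and 1280, 2132 and 1271 in wt pools. In CPM these were 18.6, 27.0 and 23.8 against 37.6, 56.2 and 34.9, and every wt pool was above every pool labelled Rbm47-IKO. The log2 fold change was -0.89 (SE 0.21, 95% interval -1.39 to -0.39). The edgeR adjusted p was 0.0773, which did not pass, and the DESeq2 adjusted p was 0.00202, which did. Over the alternatives, including those that left out a pool, the log2 fold change ran from -1.02 to -0.65 and the adjusted p from 0.00202 to 0.258.

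Cox7a2, the isoform of the same subunit present in most tissues, did not show this difference. It had 61.6, 82.5 and 74.4 CPM in the pools labelled Rbm47-IKO and 50.9, 94.0 and 52.5 in wt pools, a log2 fold change of 0.15 (SE 0.25, edgeR adjusted p = 0.854). Per kilobase of exon, the ratio of Cox7a1 to Cox7a2 was 0.627, 0.677 and 0.662 in the pools labelled Rbm47-IKO and 1.53, 1.24 and 1.37 in wt pools. Per kilobase, Cox7a1 was thus the lower isoform in the former and the higher in the latter. This ratio was chosen after its values were seen and was not tested. The order rests on exon lengths of 364 bases for Cox7a1 and 754 for Cox7a2. In CPM, Cox7a1 was below Cox7a2 in every pool, with 37.6, 56.2 and 34.9 against 50.9, 94.0 and 52.5 in wt pools. Cox7a2l, a related protein that takes part in joining complexes III and IV, had a log2 fold change of 0.05 (SE 0.17, edgeR adjusted p = 0.934). Neither Cox7a1 nor Cox7a2 shared a 50-base word or an exon base with another gene.

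Muscle markers varied widely between pools of both groups. Pool 3 labelled Rbm47-IKO held the highest smooth muscle marker sum (4395 CPM) with 23.8 CPM of Cox7a1, and wt pool 1 held the lowest (126) with 37.6. wt pool 2, with the second highest sum (3524), held the highest Cox7a1 level of the 6 pools (56.2). The 8 markers of skeletal muscle, heart and brown fat, of which 5 exceeded 3 counts in a pool, summed to 3.78 to 18.2 CPM in the pools labelled Rbm47-IKO and 2.79 to 16.4 in wt pools, with Ucp1 at 0 in all pools. Of these, Acta1 had 1.13, 0.950 and 1.23 CPM against 1.03, 3.58 and 4.09, with overlapping groups. Its log2 fold change was -1.40 (SE 0.49, edgeR adjusted p = 0.205), while Adipoq (0.98), Ckm (0.78) and Myh7 (0.01) were above 0. Paneth and crypt stem cell markers summed to 516 to 757 CPM in the pools labelled Rbm47-IKO and 499 to 1739 in wt pools. B and plasma cell markers summed to 260 to 334 against 313 to 350, and T cell markers to 40.7 to 48.9 against 40.9 to 58.7. These 3 lists held 9, 8 and 6 markers. Of these, Olfm4 (edgeR adjusted p = 0.0974), Cd79a, Cd79b, Pou2af1, Trac and Cd4 were lower without overlap, where 11.6% of all genes were. None passed, and none was higher without overlap, against 11.7% of all genes. The part of these, muscle and enterocyte markers in the Cox7a1 value was not tested.

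**Figure D3:**
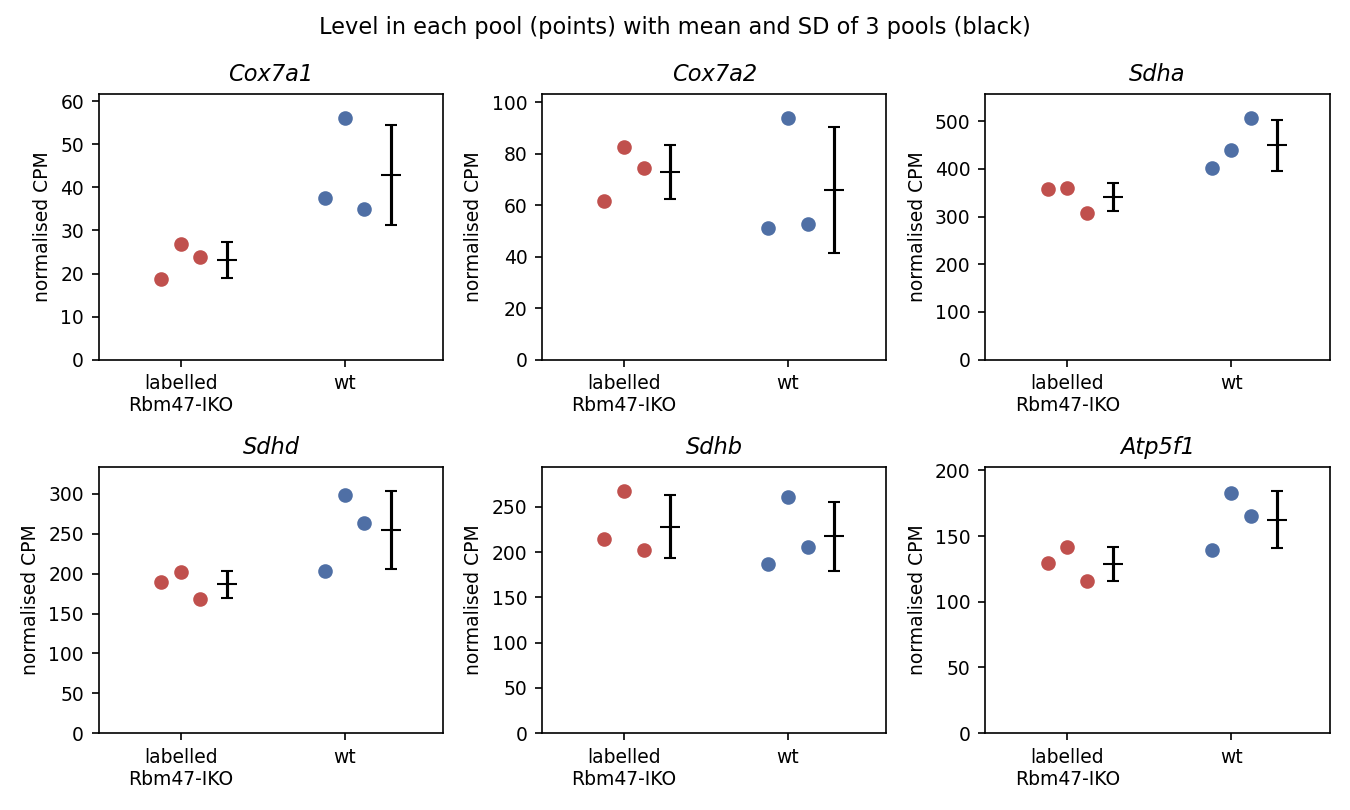
Level in each pool (points, normalised CPM, axes from 0) with the mean and SD of 3 pools (black) for the 4 members with an unadjusted p under 0.05 and for Cox7a2 and Sdhb, subunits of the same complexes. Groups do not overlap for Cox7a1, Sdha and Sdhd, and overlap for Cox7a2, Sdhb and Atp5f1.

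Other tissue isoforms of cytochrome c oxidase were scarce in both groups, so Cox7a1 stood alone among them in its level. Per length, Cox4i2, Cox6a2 and Cox8b, the isoforms of lung and of muscle, made up at most 0.222% of their pair in any pool, the remainder being Cox4i1, Cox6a1 and Cox8a. Cox6b2, an isoform of testis, made up 0.943% to 1.92% of its pair with Cox6b1. It had the highest log2 fold change of all members, 0.29 (SE 0.23, edgeR adjusted p = 0.622), with overlapping groups. Leaving out a pool moved this value between 0.14 and 0.44. Cox7b2 and Cox8c had 0 counts in all pools. By contrast Cox7a1 made up, per length, 38.5% to 40.4% of the Cox7a1 and Cox7a2 pair in the pools labelled Rbm47-IKO and 55.3% to 60.5% in wt pools. These shares depend on the exon lengths, and in CPM Cox7a1 was the smaller of the pair in every pool. The common isoforms Cox4i1, Cox6a1, Cox6b1, Cox7b and Cox8a had log2 fold changes of 0.14, 0.01, 0.02, -0.18 and -0.06, each with an edgeR adjusted p of 0.613 or more. Those of Cox6a1 and Cox6b1 turned below 0 with upper quartile scaling (-0.021 and -0.012). Leaving out a pool moved Cox4i1 between 0.015 and 0.31 and Cox7b between -0.27 and -0.016. Cox8a was the most abundant nuclear member of the complex, at 443 CPM per kilobase. Cox7c had a log2 fold change of -0.23 (SE 0.18), and from -0.38 to -0.14 when a pool was left out. It is among the genes with complete copies.

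Complex V, the ATP synthase, had 16 members tested, 13 below 0 and 3 above, with a median of -0.10. Atp5a1, the alpha subunit of the catalytic head and the most abundant nuclear member of all complexes at 492.5 CPM per kilobase, had 1523, 1544 and 1164 CPM against 1406, 1713 and 1914 in wt pools. The groups overlapped, and the log2 fold change was -0.25 (SE 0.17, edgeR adjusted p = 0.540). It ran from -0.36 to -0.13 when a pool was left out. Atp5c1, the gamma subunit of the rotor, had 219, 265 and 198 CPM against 252, 328 and 282, a log2 fold change of -0.34 (SE 0.15, edgeR adjusted p = 0.316). Atp5f1, subunit b of the stator, had 129, 142 and 116 CPM against 139, 183 and 165, a log2 fold change of -0.33 (SE 0.14, edgeR adjusted p = 0.271). For both genes only wt pool 1 lay within the range of the pools labelled Rbm47-IKO. Exons of Atp5f1 and of Wdr77 on the opposite strand share 8.21% of the Atp5f1 exon length, and Atp5f1 shares 49.9% of its 50-base words with another gene.

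The rotor ring of complex V was read almost wholly through 1 of its 3 genes. Atp5g3 had 266, 327 and 303 CPM against 205, 329 and 253, a log2 fold change of 0.19 (SE 0.18, edgeR adjusted p = 0.708). That value ran from 0.036 to 0.38 when a pool was left out. Atp5g1 had 2.57 to 3.74 CPM over the 6 pools and Atp5g2 4 to 12 counts, and Atp5g2 did not pass the filter. As the printed stretches show, Atp5g3 has no copy of its middle coding bases in another gene while the others have. Atp5d, the delta subunit, had a log2 fold change of 0.13 (SE 0.16, edgeR adjusted p = 0.769), and from 0.027 to 0.29 when a pool was left out.

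Mitochondrial and nuclear members gave different spreads between pools but no difference between the labelled groups that passed. The 7 mitochondrial genes tested had log2 fold changes from -0.22 (mt-Nd2) to -0.08 (mt-Cytb), median -0.14, all below 0, and the lowest adjusted p was 0.712 (mt-Nd5). The median turned to 0.04 without wt pool 3. The 78 nuclear genes tested had a median of -0.05, with 48 below 0 and 30 above. This median turned to 0.12 without wt pool 2 and to 0.01 without pool 3 labelled Rbm47-IKO, so that neither median has a direction that holds over the pools. Without wt pool 2, the medians of complexes I, III and V turned above 0 as well (0.12, 0.02 and 0.08).

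mt-Co1, which encodes the catalytic subunit of cytochrome c oxidase, had 8054, 5884 and 5942 CPM in the pools labelled Rbm47-IKO and 5800, 6324 and 10610 in wt pools. In each group 1 pool stood above the others, pool 1 labelled Rbm47-IKO and wt pool 3. The log2 fold change was -0.19 (SE 0.26, edgeR adjusted p = 0.809). mt-Co1 held 64.8% to 71.4% of all counts on mitochondrial members in a pool. This share rests on the 7 genes tested, since the mitochondrial members at or next to 0 added almost nothing to the total. It is thus not a share of all mitochondrial mRNA. Per kilobase the order was mt-Co1 (4597 CPM), mt-Nd1 (1109), mt-Cytb (803), mt-Nd5 (289.6), mt-Nd2 (272), mt-Nd4 (219) and mt-Nd6 (159.7), the last being the gene encoded on the other strand. Use of strand in counting is not given, and the order was not corrected for shared sequence. mt-Nd4 shares 62.2% of its words with other genes, mt-Co1 51.1%, mt-Nd2 8.19% and mt-Nd5 7.61%, and the remaining genes share none. All 7 were highest of the 6 pools in wt pool 3. All 7 were highest in pool 1 and lowest in pool 2 within the pools labelled Rbm47-IKO.

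Mitochondrial members took 1.14%, 0.815% and 0.932% of the counts of the pools labelled Rbm47-IKO and 0.922%, 0.909% and 1.42% of those of wt pools. Nuclear members took 1.02%, 1.14% and 0.964% against 0.974%, 1.29% and 1.08%. The Wilson 95% interval of each of these shares was at most 0.00752 percentage points wide, and covers counting error only. The ratio of mitochondrial to nuclear members was 1.12, 0.716 and 0.968 against 0.946, 0.703 and 1.32. Both groups held a pool near 0.7, their pool 2, and the groups overlapped. The mitochondrial counts nearly lack the genes at or next to 0. These shares and ratios thus describe the counts as listed, not the balance of mitochondrial and nuclear transcripts.

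Nuclear members moved together between pools of 1 genotype. wt pool 2 was the highest of the 6 pools for 54 of the 78 nuclear members tested and pool 2 labelled Rbm47-IKO for 14. Over all 16425 genes tested, these pools were the highest for 2568 and 2026. On a scale of log2(CPM + 0.5), the median nuclear member was 0.31 above its genotype mean in wt pool 2, 0.17 above in pool 2 labelled Rbm47-IKO and 0.21 below in wt pool 1. The median over all genes tested was within 0.02 of the genotype mean in each pool. The deviation in wt pool 2 was 0.42 for the 27 nuclear members with exons of up to 1 kb and 0.14 for the 23 above 2 kb. All genes tested in these length classes deviated by -0.043 and -0.015 in that pool. Between 1 and 2 kb the deviation was 0.26 for 28 nuclear members and 0.091 for all genes. The 75 mitochondrial ribosome genes deviated by 0.20 in the same pool. wt pool 2 was also 1 of the 2 pools with high smooth muscle markers, and in the other such pool, pool 3 labelled Rbm47-IKO, nuclear members were 0.10 below their genotype mean. In wt pool 2 mitochondrial members were 0.38 below theirs, the reverse of the nuclear members. The parts of smooth muscle content and of exon length in these movements were not tested.

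**Figure D4:**
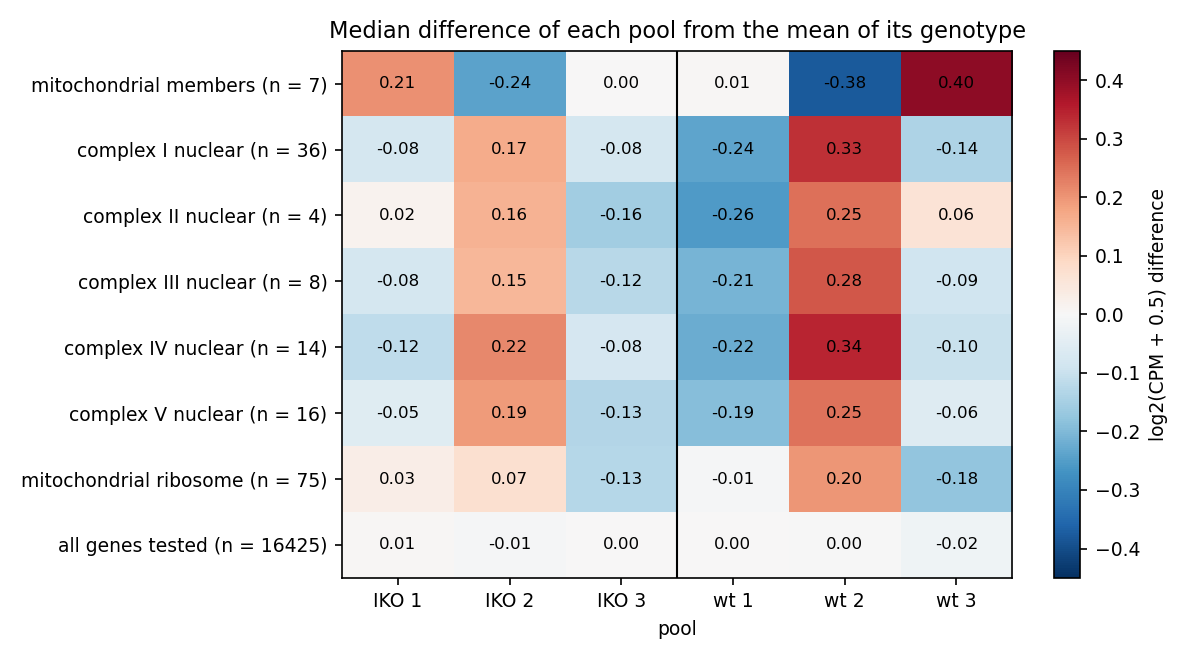
Median difference of each pool from the mean of its genotype, in log2(CPM + 0.5), for mitochondrial members, nuclear members of each complex, mitochondrial ribosome genes and all genes tested (rows) in the pools labelled Rbm47-IKO and wt (columns). Nuclear members of all 5 complexes are above the mean in pool 2 of both genotypes, by up to 0.34, where mitochondrial members are below it by 0.24 and 0.38.

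Promoters of the nuclear members were also searched for letters bound by factors known for respiratory genes. A link between these letters and the movement between pools was not tested. RefSeq (GRCm38.p6) gave windows from 250 bases before to 50 after the gene start for 69 of the 85 nuclear members and for 27025 genes in all, and both strands were searched. The NRF1 palindrome, which is the core GCATGCGC with GC in front, was in 5 member windows (7.25%) and in 1.07% of all windows, and the core alone, with or without the GC, in 10 (14.5%) and 3.05%. The ETS letters CCGGAAG, read by GABPA, were in 16 (23.2%) and 9.93%, the YY1 letters AAGATGGC in 10 (14.5%) and 3.19%, and the ERRA letters TCAAGGTCA in 2 (2.9%) and 0.466%. The set of all windows includes genes that are not expressed and non-coding genes, and a match is a description and not a bound site. The YY1 letters were in 7 of 32 windows of complex I, 3 of 15 of complex V and none of the 3, 5 and 14 of complexes II, III and IV. Cox7a1 and Sdha held none of these letters in their windows, while Sdhd held the ETS and ERRA letters and Sdhb the ETS letters and the NRF1 core. The stretches below show 3 NRF1 matches upstream of the gene start, on the strand of the gene, with the match in capitals. They lie at chr5:108434430-108434459 (minus strand, Atp5k), chr5:115349101-115349130 (minus strand, Cox6a1) and chr17:56717692-56717721 (plus strand, Ndufa11).
Atp5k: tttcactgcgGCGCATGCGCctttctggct
Cox6a1: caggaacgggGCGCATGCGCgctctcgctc
Ndufa11: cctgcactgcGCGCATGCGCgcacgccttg

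Of the other genes of the pathway, in lists of 3 to 75 genes tested, 1 passed the edgeR test, where 2.7% of all genes tested passed. Atpaf2, a chaperone for the alpha subunit in ATP synthase assembly (chromosome 11, 60400626 to 60418457), had 42.6, 46.9 and 39.8 CPM in the pools labelled Rbm47-IKO and 27.1, 25.6 and 25.8 in wt pools. It rose by a log2 fold change of 0.72 (SE 0.10, edgeR adjusted p = 0.0175), among 1.45% of all genes called higher. The call was lost without pool 1 labelled Rbm47-IKO (adjusted p = 0.0943), without pool 2 labelled Rbm47-IKO (0.135) and without wt pool 3 (0.0696), with a log2 fold change of 0.65 to 0.78 without any 1 pool. A block for the pool number, which did not pair the samples, also ended the call (edgeR adjusted p = 0.0612). The other 4 complex V assembly genes, Atpaf1, Tmem70, Tmem242 and Fmc1, had log2 fold changes from 0.21 to 0.41 and did not pass, and the list's median was 0.30 against -0.01 for all genes. With edgeR no gene passed among 16 complex I, 10 complex II and III or 22 complex IV assembly genes, with medians of -0.06, -0.07 and 0.02. The extremes of those lists were Ndufaf8 (0.27) and Tmem126b (-0.35), Uqcc2 (0.16) and Lyrm7 (-0.51), and Cox18 (0.31) and Cox15 (-0.41, edgeR adjusted p = 0.0861), which DESeq2 called. Leaving out a pool moved Ndufaf8 between 0.17 and 0.45, Uqcc2 between 0.0047 and 0.51 and Cox18 between 0.18 and 0.38. Cox15 takes part in heme A synthesis for complex IV, and shares 9.05% of its exon length with Entpd7 on the opposite strand, whose mean count was 12675 against 3160 for Cox15.

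Feeding pathways gave no call with edgeR as set up here. Under other edgeR scalings or filters Suclg2 was called in 3 settings and Etfa in 1. With DESeq2, 1 of 20 electron carrier genes (Etfa) and 2 of 13 citric acid cycle genes (Suclg2 and Cs) were called, in a background of 9.03%. Among 20 electron carrier genes the median was -0.01, with Etfa, which takes electrons from fatty acid oxidation, at -0.40 (SE 0.10, edgeR adjusted p = 0.0792) and Sqor, the sulfide oxidase, at 0.22. Sqor ran from 0.14 to 0.29 when a pool was left out. Among 13 citric acid cycle genes the median was 0.02. Cs, citrate synthase, had 1798, 1946 and 1559 CPM against 1183, 1287 and 1462, a log2 fold change of 0.43 (SE 0.14, edgeR adjusted p = 0.175). Suclg2, the GTP-forming subunit of succinyl-CoA ligase, had 16.7, 16.3 and 13.9 CPM against 24.1, 22.5 and 23.2. Its log2 fold change was -0.57 (SE 0.12, edgeR adjusted p = 0.0524), just outside the threshold, and groups overlapped for neither gene.

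Regulators and other mitochondrial genes completed the lists. Among 17 genes of mitochondrial transcription and biogenesis the median was -0.04 and none passed with edgeR as set up here. Tfam was called lower under 3 other edgeR settings and Gabpa under 2. DESeq2 called both lower, 2 of 17 in a background of 9.03%. Gabpa, whose product binds the ETS letters, had 40.3, 34.8 and 34.3 CPM against 51.5, 52.1 and 72.5, a log2 fold change of -0.69 (SE 0.16, edgeR adjusted p = 0.0700), without overlap, and Pprc1, a coactivator, was highest at 0.54. Pprc1 ran from 0.30 to 0.91 when a pool was left out. Tfam, which packages mitochondrial DNA and starts its transcription, had 18.1, 14.7 and 13.3 CPM against 23.3, 23.6 and 25.0. It was chosen after its values were seen, and had a log2 fold change of -0.64 (SE 0.14, edgeR adjusted p = 0.0619). Exons of Gabpa and Atp5j overlap on opposite strands for 6.98% of the Gabpa exon length. None of 75 mitochondrial ribosome genes passed with edgeR or DESeq2 (median 0.01, from Mrpl23 at -0.46 to Mrpl41 at 0.50). Leaving out a pool moved Mrpl23 between -0.64 and -0.096 and Mrpl41 between 0.38 and 0.77. Of the uncoupling and adenine nucleotide carriers 3 were tested and none passed with either tool. Slc25a4, the muscle isoform of the ATP and ADP exchanger, had its highest values in pool 3 labelled Rbm47-IKO (70.3 CPM) and wt pool 2 (53.2), the pools with high smooth muscle markers, against 12.9 to 23.7 in the others. Slc25a5, the common isoform, had 573 to 709 CPM and a log2 fold change of 0.06 (SE 0.12, edgeR adjusted p = 0.879).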

How the data were processed

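PolyA RNA of 6 pools was measured by RNA-seq. Per the submitters' processing notes reads were handled with STAR 2.5.1a and featureCounts 1.4.6-p5 (Subread) on GRCm38; counting options and use of strand are not given in the sources used here. The authors deposited counts per Ensembl gene, not normalized, beside CPM (counts scaled to the column total) and RPKM (that CPM per kilobase of exon). The authors' CPM and RPKM were recomputed from the counts and not used further. Symbols came from GENCODE M21 and were found for 36639 of 38561 genes, and genes without one held 0.369% of counts.

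Counts were tested with edgeR 4.0.16 (R 4.3.3) after filterByExpr and TMM (factors 0.957 to 1.04), by glmQLFit and glmQLFTest with Benjamini-Hochberg adjustment over all genes tested, called at 0.05, as were the alternatives with limma 3.58.1 and DESeq2 1.42.0. CPM in the text is scaled by TMM, except the limit given for a count of 0, which is set on unscaled totals. The 6 pools are the replicates, so p-values measure the spread between pools of mice. An exact permutation test of 3 against 3 cannot go below 0.1 and was not used. Genes were named by rule: mitochondrial members, the most abundant and the 2 highest and 2 lowest nuclear fold changes of each complex, tissue isoforms, and in each pathway list the called genes or else both extremes. Members, lists and rules were chosen with earlier results of these data known. Promoter and coding sequences were matched as exact letters. The edgeR fit as set up here was tested on simulated counts before use, and the alternatives were not.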

Additional observations from a re-analysis of the deposited data

How the results depend on the processing

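Each value was computed again under 9 other settings (RLE size factors, upper quartile scaling, library size only, no mitochondrial genome, no filter, at least 1 CPM in 3 pools, DESeq2, limma-voom and a replicate block) and without each pool. The number of members called was 1 with DESeq2 and 0 in each other setting and without each pool in turn. Several medians by origin and complex turned sign without a pool: nuclear members ranged from -0.14 to 0.12, mitochondrial members from -0.31 to 0.04, and complexes I to V from -0.13 to 0.12, -0.43 to -0.21, -0.14 to 0.02, -0.12 to 0.22 and -0.19 to 0.08. Log2 fold changes turned sign for Cox6a1 with upper quartile scaling (-0.021) and library size only (-0.0018) and for Cox6b1 with upper quartile scaling (-0.012). Leaving out a pool turned the sign of these genes, given with their ranges: Ndufb9 -0.091 to 0.35, Sdhb -0.063 to 0.22, Uqcrc1 -0.18 to 0.042, Cox7a2 -0.0067 to 0.50, Cox8a -0.20 to 0.12, Atp5g1 -0.21 to 0.056, Cox6a1 -0.12 to 0.22, Cox6b1 -0.11 to 0.23, Cox7a2l -0.078 to 0.23, mt-Co1 -0.36 to 0.13, mt-Cytb -0.23 to 0.15, mt-Nd1 -0.29 to 0.13, mt-Nd2 -0.41 to 0.019, mt-Nd4 -0.31 to 0.0029, mt-Nd6 -0.33 to 0.040, Slc25a4 -0.40 to 1.33 and Slc25a5 -0.034 to 0.12. The cause was not tested. Cs, Suclg2, Cox15, Etfa, Gabpa and Rbm47 passed with DESeq2 (adjusted p from 0.000983 to 0.0467), and Suclg2, Etfa, Gabpa and Rbm47 also under 1 to 3 other settings. Tfam passed with DESeq2 and under 3 other settings.

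Over all genes, calls numbered 443 and ranged from 383 to 614 with edgeR under other scalings or filters, 431 with limma-voom and 1252 with DESeq2. Without a pool they numbered 0 (pool 2 labelled Rbm47-IKO, with 1729 at an unadjusted edgeR p under 0.05), 11 (wt pool 3), 32 (pool 1 labelled Rbm47-IKO) and 119 (pool 3 labelled Rbm47-IKO), but 335 without wt pool 1 and 431 without wt pool 2. Pool numbers did not pair the samples: deviations of same-numbered pools correlated at 0.42, -0.04 and -0.32. With the replicate block, 100 genes and 0 members were called, and Atpaf2 had an adjusted p of 0.0612. Members with copies elsewhere and the 6 mitochondrial genes near 0 limit what the counts can show.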
